A study of Mus musculus with 4 samples.

Results

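Solute carriers of the SLC superfamily were described in mouse macrophages derived from tumours of the MCA fibrosarcoma 9609 and treated in culture with exosomes, the small vesicles that cells release. The carriers are the loci with an Slc symbol that the authors' Cuffdiff test covered and that hold a single gene. They were chosen by their measured level, the larger of the 2 group values being at least 5 FPKM. FPKM counts fragments by transcript length and by the total of the library. There were 130 such loci among 12648 tested, after 5 well-studied carriers (Slc7a11, Slc40a1, Slc11a1, Slc2a1 and Slc16a3) were left out by name. The treated samples were 2 of wild-type tumour macrophages given MEK1-hi exosomes. Set against them were 2 samples of the same genotype and tumour line given MEK1-low exosomes, which the labels also mark as GFP. MEK1 is the kinase that activates ERK, and no untreated macrophages were compared. The MEK1 content of the exosomes and the GFP marking differ together between the groups and cannot be told apart. All samples carry the label of 1 tumour line, and the labels do not say whether samples of a group came from separate animals.

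SLC proteins are membrane carriers that move nutrients, metabolites and ions without burning ATP directly. Most run on gradients of sodium or protons or exchange 1 solute for another, and each numbered family tends to share a class of substrate. In macrophages they bring in amino acids and sugars, load and empty lysosomes and mitochondria, and set the supply of iron, zinc and copper, metals that these cells recycle or withhold from microbes.

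The deposited table gives 1 value per group, so no spread between samples can be printed and every p and q below is the authors' own. Such a q covers only how these samples vary, and part of that may be technical. In bulk RNA, fewer cells of a type and less RNA per cell cannot be told apart. Of the macrophage markers, Lyz2 stood at 13148 FPKM with MEK1-hi and 12303 FPKM with MEK1-low exosomes, Cd68 at 1755 FPKM with MEK1-hi and 1728 FPKM with MEK1-low exosomes, and Fcgr1 at 153 FPKM with MEK1-hi and 107 FPKM with MEK1-low exosomes. Csf1r was lower, at 672 FPKM with MEK1-hi and 855 FPKM with MEK1-low exosomes, as was Adgre1, at 318 FPKM with MEK1-hi and 387 FPKM with MEK1-low exosomes. None of these macrophage markers was called by Cuffdiff. The 5, most of whose sum is Lyz2, summed to 16046 FPKM with MEK1-hi and 15381 FPKM with MEK1-low exosomes. The 5 fibroblast or fibrosarcoma markers found summed to 4.33 FPKM with MEK1-hi and 4.94 FPKM with MEK1-low exosomes. All 4 neutrophil markers were listed at 0 in both groups, and the T cell, B cell, endothelial and erythroid markers each stayed under 1.3 FPKM. The highest marker of another cell type was the keratin gene Krt18, at 4.05 FPKM with MEK1-hi and 6.48 FPKM with MEK1-low exosomes. The part of such cells in the results was not tested.

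Among the 130 loci, 2 rose and 7 fell with MEK1-hi exosomes at a q under 0.05 in the authors' deposited table. The 9 called loci are 6.92% of the 130, beside 2.44% of all loci tested and 3.13% of the single-gene loci tested at 5 FPKM or more. By direction, 1.54% of the SLC loci rose and 5.38% fell, beside 0.751% and 1.69% of all loci tested. Of the 8125 single-gene loci tested at 5 FPKM or more, 70 were called higher and 184 lower. An unadjusted p under 0.05 was reached by 19 of the 130 (14.6%), beside 8.66% of all loci tested. Among those 8125 loci, 279 with a higher value and 476 with a lower value had such a p. The level limit used the same group values as the comparison, so these shares describe the carriers and support nothing further. The called genes were the sodium-proton exchanger gene Slc9a9 and the amino acid exchanger gene Slc7a8, which rose, and Slc13a3, Slc39a4, Slc2a6, Slc9a3r2, Slc25a37, Slc36a2 and Slc31a2, which fell. The carriers among them belong to 6 substrate classes, and no class held more than 2.

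**Figure D1:**
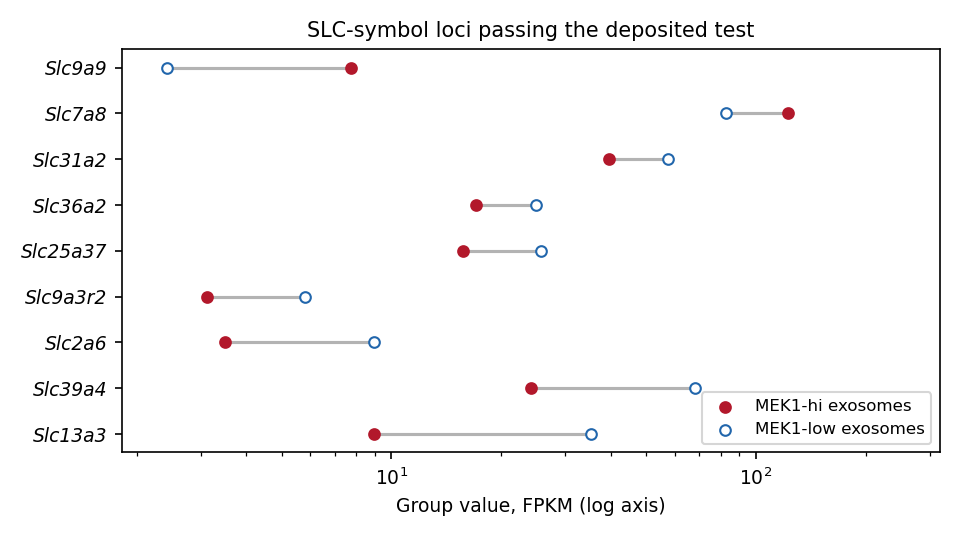
Group values in FPKM on a log axis for the 9 called loci, ordered by fold change. Filled points are MEK1-hi and open points MEK1-low exosomes. Slc9a9 and Slc7a8 lie higher with MEK1-hi exosomes and the other 7 lie lower, with the widest gap at Slc13a3, 8.98 FPKM with MEK1-hi against 35.3 FPKM with MEK1-low exosomes.

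Promoters of the 5 called carriers matched in the RefSeq table (build GRCm38.p6) are shown, because they are the start regions of genes that passed the deposited test. Not matched were Slc39a4, Slc25a37 and Slc36a2, and the scaffold gene Slc9a3r2 is not shown. Each runs 5′ to 3′ on the strand of its gene, from 250 bases before to 50 bases after the start site. Capitals mark matches on either strand to the AP-1 motif TGANTCA, the ETS motif CCGGAAG, the PU.1 motif GAGGAAGT, the antioxidant element TGACNNNGC bound by NRF2, the E-box CACGTG, the metal response elements TGCACNC and TGCGCNC, or the NF-kB motif GGGNNTTTC. Slc13a3 lies on the minus strand (chr2:165473148-165473447), as do Slc2a6 (chr2:27027949-27028248) and Slc7a8 (chr14:54781837-54782136), while Slc31a2 (chr4:62286179-62286478) and Slc9a9 (chr9:94669642-94669941) lie on the plus strand. The Slc31a2 window lies inside its listed locus (chr4:62262562-62298411) and not at its start, unlike the other windows.
Slc13a3: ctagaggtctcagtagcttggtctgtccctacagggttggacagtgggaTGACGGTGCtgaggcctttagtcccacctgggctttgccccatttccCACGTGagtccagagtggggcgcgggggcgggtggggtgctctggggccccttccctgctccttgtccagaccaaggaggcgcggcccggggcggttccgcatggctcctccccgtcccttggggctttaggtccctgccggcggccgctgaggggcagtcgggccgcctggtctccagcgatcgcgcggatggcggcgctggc
Slc2a6: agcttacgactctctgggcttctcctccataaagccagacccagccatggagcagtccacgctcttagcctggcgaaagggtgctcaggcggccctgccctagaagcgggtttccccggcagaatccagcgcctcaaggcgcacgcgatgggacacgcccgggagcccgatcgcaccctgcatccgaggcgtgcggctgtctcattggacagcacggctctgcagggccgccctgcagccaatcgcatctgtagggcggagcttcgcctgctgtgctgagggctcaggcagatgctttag
Slc31a2: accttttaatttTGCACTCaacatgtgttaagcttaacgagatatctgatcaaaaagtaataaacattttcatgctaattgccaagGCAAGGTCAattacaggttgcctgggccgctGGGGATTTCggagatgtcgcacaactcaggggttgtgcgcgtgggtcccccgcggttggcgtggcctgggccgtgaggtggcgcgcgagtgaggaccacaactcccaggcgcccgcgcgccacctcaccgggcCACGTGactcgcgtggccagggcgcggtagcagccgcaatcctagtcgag
Slc9a9: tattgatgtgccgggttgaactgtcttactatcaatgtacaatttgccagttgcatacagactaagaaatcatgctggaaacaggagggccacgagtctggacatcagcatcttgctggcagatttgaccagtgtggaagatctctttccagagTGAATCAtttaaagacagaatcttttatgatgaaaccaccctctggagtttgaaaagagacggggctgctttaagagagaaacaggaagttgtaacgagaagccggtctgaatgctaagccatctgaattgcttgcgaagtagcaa
Slc7a8: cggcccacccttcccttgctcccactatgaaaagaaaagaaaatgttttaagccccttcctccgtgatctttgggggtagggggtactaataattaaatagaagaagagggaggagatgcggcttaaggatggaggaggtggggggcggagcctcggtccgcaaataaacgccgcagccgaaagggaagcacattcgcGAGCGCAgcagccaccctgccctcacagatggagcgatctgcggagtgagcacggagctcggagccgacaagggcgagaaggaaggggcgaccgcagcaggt

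Slc13a3 and Slc31a2, which both fell, each held an antioxidant element and an E-box in this window, and Slc31a2 also held an NF-kB match and a metal response element of the TGCACNC form. The window of Slc9a9, which rose, held an AP-1 match, that of Slc7a8 a match of the TGCGCNC form, and that of Slc2a6 none of the 8 motifs. AP-1 matches were not confined to called loci that rose. Slc9a3r2, which fell and is not shown, also held an AP-1 match and, in a separate window, an antioxidant element. Antioxidant elements were present in 20.6% of the 136 promoters found for 100 of the SLC loci, against 14.2% of the 7513 promoters of other single-gene loci tested at 5 FPKM or more and 12.4% of all 32851 promoters. E-boxes were present in 15.4% of SLC promoters, against 10.7% of those of the other expressed loci and 7.15% of all. The ETS motif was in 24.3% of SLC promoters, against 20.4% of those of the other expressed loci and 8.86% of all. The NF-kB motif was in 5 of the 136 SLC promoters, or 3.68%, against 4.11% of those of the other expressed loci and 4.36% of all. AP-1 matches were in 4.41% of SLC promoters, 4.96% of those of the other expressed loci and 7.81% of all, and PU.1 matches in 2.21%, 3.39% and 3.20%. The metal response element was in 15.4% of SLC promoters in its TGCACNC form and in 25.7% in its TGCGCNC form, against 11.99% and 26.9% of those of the other expressed loci and 12.6% and 15.4% of all. The antioxidant element can overlap an AP-1 match by its first bases, and a match is a run of letters only. Median GC content was 61.3% for SLC promoters, 61.0% for those of the other expressed loci and 52.7% for all.

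Levels of the 130 loci spanned more than 2 orders of magnitude. The highest was Slc48a1, the carrier that brings heme out of phagolysosomes, at 577 FPKM with MEK1-hi and 628 FPKM with MEK1-low exosomes. Next came Slc3a2, the CD98 heavy chain that brings several amino acid exchangers to the surface, at 306 FPKM with MEK1-hi and 334 FPKM with MEK1-low exosomes. Slc25a3, the mitochondrial phosphate carrier, stood at 256 FPKM with MEK1-hi and 235 FPKM with MEK1-low exosomes. Together the 130 loci made up 0.728% of the FPKM total with MEK1-hi and 0.7296% with MEK1-low exosomes.

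Most SLC loci differed little between the groups. The absolute log2 fold change was under 0.25 in 97 of the 130, or 74.6%, beside 76.8% of the other 7995 single-gene loci tested at 5 FPKM or more. Values were higher with MEK1-hi exosomes in 55 loci and lower in 75, a share higher of 42.3% beside 49.5% of the other loci. The median log2 fold change was -0.03 for the SLC loci and -0.0024 for the others, and the SD across loci was 0.38 and 0.30. The lower values were most frequent among the 76 SLC loci with a mean of 10 to 50 FPKM, where 24 were higher and 52 lower. Of all 4287 single-gene loci in that range, 49.4% were higher. At a mean of 50 FPKM or more, 9 were higher and 8 lower, and under 10 FPKM 22 were higher and 15 lower.

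**Figure D2:**
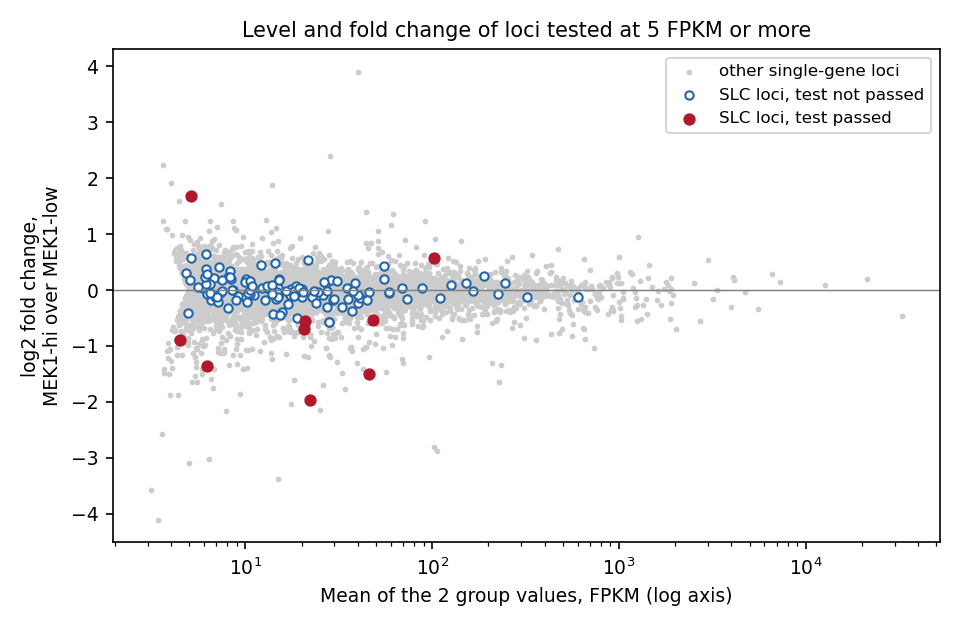
Mean of the 2 group values in FPKM on a log axis against the log2 fold change of MEK1-hi over MEK1-low exosomes, for loci tested at 5 FPKM or more. Grey points are the 7995 other single-gene loci, open blue points the SLC loci that did not pass the deposited test, and red points the 9 that did.

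Carriers of carboxylates and bile acids held the deepest fall. Slc13a3 encodes NaDC3, a sodium-coupled carrier of dicarboxylates such as succinate and alpha-ketoglutarate. Its locus is at chr2:165405028-165473230 in mm10. Slc13a3 stood at 8.98 FPKM with MEK1-hi and 35.3 FPKM with MEK1-low exosomes, a log2 fold change of -1.97 or 3.93-fold lower (q = 0.00349 in the authors' deposited table). The other 4 members of this class had higher values with MEK1-hi exosomes, and none of them was called by Cuffdiff. Slc16a1, the monocarboxylate carrier MCT1, stood at 5.98 FPKM with MEK1-hi and 5.84 FPKM with MEK1-low exosomes. Slc16a7, which encodes the related MCT2, stood at 9.20 FPKM with MEK1-hi and 7.31 FPKM with MEK1-low exosomes (q = 0.999 in the authors' deposited table). Slc10a7 and Slc16a13 had log2 fold changes of 0.21 and 0.31.

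Carriers of heme and of metals (zinc, copper, iron and magnesium) numbered 20. By the deposited q, 2 fell and 0 rose, beside 1.69% and 0.751% of all loci tested. Values were lower in 13 of the 20 and higher in 7, with a median log2 fold change of -0.09. Unadjusted p-values under 0.05 went with 4 lower members and 1 higher member, beside 8.66% of all loci tested in either direction. Slc39a4, at chr15:76612383-76617384, encodes ZIP4, the zinc importer whose loss in people causes acrodermatitis enteropathica. It stood at 24.2 FPKM with MEK1-hi and 68.2 FPKM with MEK1-low exosomes, 2.82-fold lower (q = 0.00349 in the authors' deposited table). Slc31a2, at chr4:62262562-62298411, encodes CTR2, a copper transporter of endosomes and lysosomes. Slc31a2 stood at 39.5 FPKM with MEK1-hi and 57.4 FPKM with MEK1-low exosomes, a log2 fold change of -0.54 (q = 0.0157 in the authors' deposited table). Its neighbour Slc31a1, the high-affinity copper importer CTR1, lies 62316 bases away and stood at 22.1 FPKM with MEK1-hi and 25.9 FPKM with MEK1-low exosomes (q = 0.924 in the authors' deposited table).

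Slc11a2 encodes DMT1, which moves ferrous iron out of endosomes, and stood at 22.7 FPKM with MEK1-hi and 33.6 FPKM with MEK1-low exosomes. Its log2 fold change of -0.57 was larger in size than that of Slc31a2 and did not pass over all loci (p = 0.00535, q = 0.145 in the authors' deposited table). Slc30a1, which exports zinc across the plasma membrane, stood at 12.03 FPKM with MEK1-hi and 16.3 FPKM with MEK1-low exosomes (p = 0.00355, q = 0.107 in the authors' deposited table). Exons of Slc11a2 and Slc30a1 overlap those of Gm5475 and 1700034H15Rik on the opposite strand by 402 and 468 bases. The zinc importers of the Slc39 family were lower in 6 of 9 members and higher in 3, while the zinc exporters of the Slc30 family were lower in 2 of 5 and higher in 3. Slc39a10 had the highest ratio of the importers, at 8.28 FPKM with MEK1-hi and 6.23 FPKM with MEK1-low exosomes (p = 0.0129, q = 0.263 in the authors' deposited table). The abundant importer Slc39a1 stood at 57.7 FPKM with MEK1-hi and 60.2 FPKM with MEK1-low exosomes. Its retrotransposed pseudogene Slc39a1-ps, which shares sequence with it, was listed at 7.19 FPKM with MEK1-hi and 7.47 FPKM with MEK1-low exosomes, and reads may be split between the pair. Slc30a7, a zinc carrier of the Golgi, stood at 16.9 FPKM with MEK1-hi and 12.04 FPKM with MEK1-low exosomes without being called. Slc48a1 had a log2 fold change of -0.12 (q = 0.999 in the authors' deposited table).

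**Figure D3:**
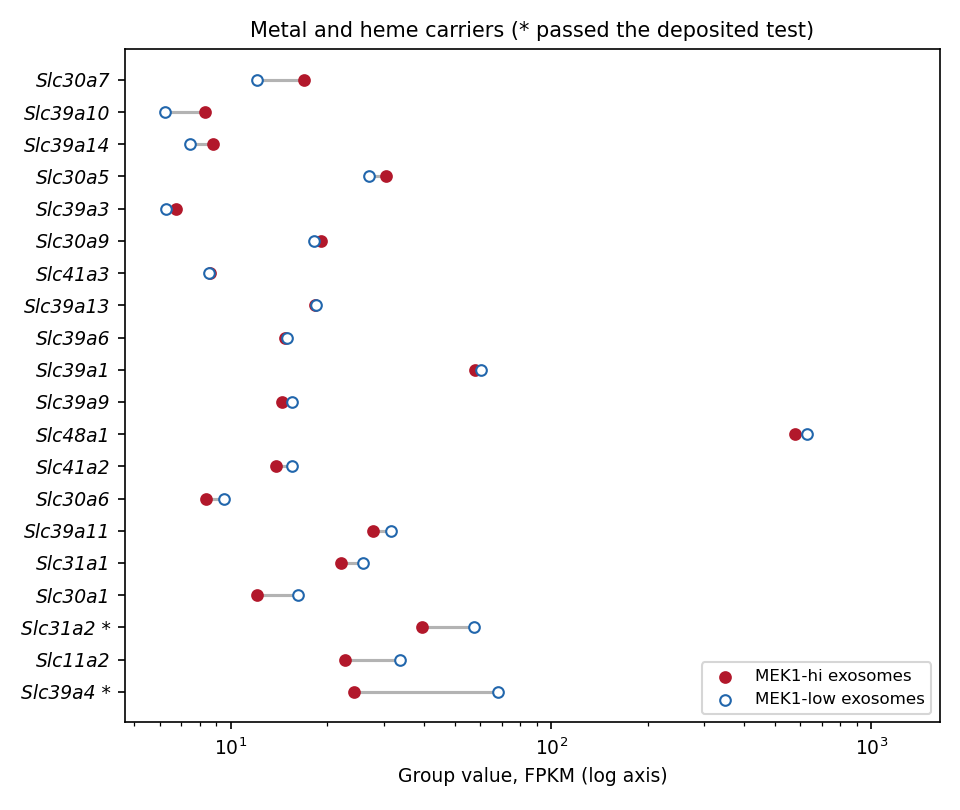
Group values in FPKM on a log axis for the 20 metal and heme carriers, ordered by fold change, with filled points for MEK1-hi and open points for MEK1-low exosomes. Asterisks mark Slc39a4 and Slc31a2, which passed the deposited test, and Slc48a1 stands apart by its level.

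Iron is taken into mitochondria by Slc25a37, mitoferrin 1, which is best known from red cell precursors. This gene, at chr14:69241848-69305355, was the 1 called member of 27 mitochondrial carriers, beside 2.44% called of all loci tested. Slc25a37 stood at 15.8 FPKM with MEK1-hi and 25.7 FPKM with MEK1-low exosomes, 1.63-fold lower (q = 0.00349 in the authors' deposited table). Its paralog Slc25a28, mitoferrin 2, stood at 18.9 FPKM with MEK1-hi and 19.3 FPKM with MEK1-low exosomes (q = 0.999 in the authors' deposited table). The erythroid markers were low and lay the same way. Hba-a1 stood at 0.590 FPKM with MEK1-hi and 0.991 FPKM with MEK1-low exosomes, and Hbb-bs at 0.652 FPKM with MEK1-hi and 1.25 FPKM with MEK1-low exosomes, neither called by Cuffdiff, while Slc4a1, the anion exchanger of red cells, was listed at 0 in both groups. Their part in the Slc25a37 value was not tested. Slc25a37 was the 1 called member whose exons overlap those of other annotated genes, Gm31748 and Gm27223 on the opposite strand, by 381 and 92 bases.

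The mitochondrial family as a whole kept within a narrow band, with 24 of 27 members inside an absolute log2 fold change of 0.25. Values were lower in 19 and higher in 8, and the median was -0.03. Slc25a5 and Slc25a4, which exchange ADP for ATP across the inner membrane, had log2 fold changes of -0.08 and -0.03. Slc25a5 stood at 218 FPKM with MEK1-hi and 231 FPKM with MEK1-low exosomes, and its processed pseudogenes make its level uncertain. The citrate carrier Slc25a1 had a log2 fold change of -0.15, the dicarboxylate carrier Slc25a10 of -0.09 and the oxoglutarate-malate carrier Slc25a11 of -0.17. These carriers share substrates with Slc13a3, and none of them was called by Cuffdiff.

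Amino acid and peptide carriers numbered 21, of which 1 rose and 1 fell in the authors' deposited table. Values were higher in 9 and lower in 12, and the median log2 fold change was -0.04. Slc7a8, at chr14:54722209-54781946, encodes LAT2, an exchanger of neutral amino acids that pairs with the CD98 heavy chain. Slc7a8 rose to 123 FPKM with MEK1-hi exosomes, against 83.0 FPKM with MEK1-low exosomes, a 1.48-fold difference (q = 0.00349 in the authors' deposited table). Its partner Slc3a2 had a log2 fold change of -0.13. Other light chains of that partner, Slc7a6 and Slc7a7, which exchange cationic for neutral amino acids, had log2 fold changes of -0.12 and 0.13. The exchanger Slc7a8 was called and these 3 were not, and the difference between the genes was not tested.

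Slc36a2, at chr11:55158470-55185077, encodes PAT2, a proton-coupled carrier of small amino acids such as glycine and proline. It stood at 17.0 FPKM with MEK1-hi and 24.9 FPKM with MEK1-low exosomes, a log2 fold change of -0.55 (q = 0.0325 in the authors' deposited table). Its neighbour Slc36a1, the lysosomal PAT1, lies 19273 bases away and stood at 23.0 FPKM with MEK1-hi and 24.7 FPKM with MEK1-low exosomes. All 3 members of this family, Slc36a4 included, had lower values, and the other pair was not called. The glutamine carrier Slc1a5 stood at 29.6 FPKM with MEK1-hi and 36.5 FPKM with MEK1-low exosomes (q = 0.716 in the authors' deposited table). Slc38a9, the lysosomal arginine sensor upstream of mTORC1, had a log2 fold change of 0.58, close to that of Slc7a8. At a low level of 6.14 FPKM with MEK1-hi and 4.11 FPKM with MEK1-low exosomes, it did not pass (p = 0.0646, q = 0.651 in the authors' deposited table). The abundant taurine carrier Slc6a6 stood at 166 FPKM with MEK1-hi and 167 FPKM with MEK1-low exosomes. Slc15a3, an endolysosomal carrier of histidine and small peptides, stood at 157 FPKM with MEK1-hi and 145 FPKM with MEK1-low exosomes, and its exons overlap those of Tmem132a on the opposite strand by 1541 bases.

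**Figure D4:**
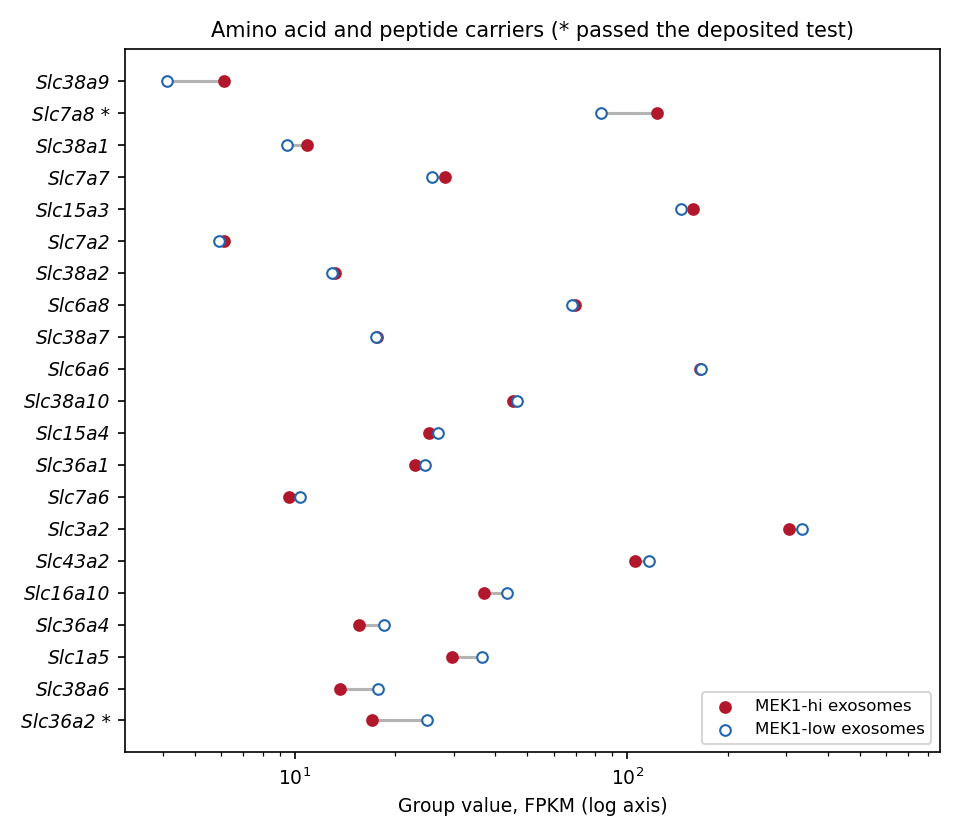
Group values in FPKM on a log axis for the 21 amino acid and peptide carriers, ordered by fold change, with filled points for MEK1-hi and open points for MEK1-low exosomes. Asterisks mark Slc7a8 and Slc36a2, which passed the deposited test in opposite directions.

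Carriers of inorganic ions and pH numbered 17, with 1 called higher and 0 lower, beside 0.751% and 1.69% of all loci tested. Slc9a9, at chr9:94669909-95230445, encodes NHE9, a sodium-proton exchanger of endosomes. It rose to 7.77 FPKM with MEK1-hi exosomes, against 2.43 FPKM with MEK1-low exosomes, 3.20-fold higher (q = 0.00349 in the authors' deposited table). Slc9a9 thus reached the level limit through the MEK1-hi value alone. Its Golgi-resident relatives Slc9a7 and Slc9a8 had log2 fold changes of -0.06 and 0.16, and neither was called by Cuffdiff. The sodium-bicarbonate cotransporter gene Slc4a7 stood at 15.6 FPKM with MEK1-hi and 22.3 FPKM with MEK1-low exosomes (p = 0.00265, q = 0.0877 in the authors' deposited table). The potassium-chloride cotransporter gene Slc12a7 stood at 25.7 FPKM with MEK1-hi and 17.6 FPKM with MEK1-low exosomes (p = 0.00895, q = 0.204 in the authors' deposited table). Slc20a1, a sodium-phosphate importer, stood at 24.5 FPKM with MEK1-hi and 30.2 FPKM with MEK1-low exosomes. Slc8b1, the sodium-calcium exchanger of mitochondria, stood at 39.2 FPKM with MEK1-hi and 43.4 FPKM with MEK1-low exosomes. The median of the class was -0.06, with 6 values higher and 11 lower.

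Sugar and sugar phosphate carriers numbered 7, of which 1 fell and 0 rose, beside 1.69% and 0.751% of all loci tested. Slc2a6, at chr2:27021363-27027998, encodes GLUT6, a hexose carrier of lysosomal membranes. Slc2a6 stood at 3.50 FPKM with MEK1-hi and 8.96 FPKM with MEK1-low exosomes, 2.56-fold lower (q = 0.00349 in the authors' deposited table), so that it reached the level limit through the MEK1-low value alone. Slc2a8, another intracellular glucose carrier, stood at 8.92 FPKM with MEK1-hi and 7.62 FPKM with MEK1-low exosomes. Slc37a2, a sugar phosphate carrier of the endoplasmic reticulum that is abundant in macrophages, stood at 205 FPKM with MEK1-hi and 172 FPKM with MEK1-low exosomes (q = 0.857 in the authors' deposited table). Slc45a4 stood at 14.1 FPKM with MEK1-hi and 10.3 FPKM with MEK1-low exosomes (p = 0.0447, q = 0.538 in the authors' deposited table). Slc50a1 had a log2 fold change of -0.16.

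Nucleotide sugar carriers of the Slc35 family, which mostly supply the glycosylation machinery of the endoplasmic reticulum and Golgi, had no called member among 14 by Cuffdiff. None reached an unadjusted p under 0.05 either, beside 8.66% of all loci tested. Values were higher in 9 and lower in 5, with a median log2 fold change of 0.09, and 13 of 14 lay inside 0.25. The exception was Slc35a4, at 63.1 FPKM with MEK1-hi and 46.7 FPKM with MEK1-low exosomes (q = 0.938 in the authors' deposited table). Slc35b1, which brings ATP into the endoplasmic reticulum, stood at 59.5 FPKM with MEK1-hi and 51.7 FPKM with MEK1-low exosomes. The summed level of the 14 was 329 FPKM with MEK1-hi and 297 FPKM with MEK1-low exosomes.

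In the class of vitamins and sodium-coupled solutes, which follows the family number, values were higher in 4 of 5 members. Cuffdiff called none of them, and 1 higher member had a p under 0.05 before adjustment, beside 8.66% of all loci tested. The member was the lysosomal carrier Slc46a3, at 7.47 FPKM with MEK1-hi and 4.79 FPKM with MEK1-low exosomes (p = 0.00575, q = 0.152 in the authors' deposited table). The folate carriers Slc19a1 and Slc46a1 had log2 fold changes of 0.23 and 0.11, and the riboflavin carrier Slc52a2 of 0.28. The ascorbate carrier Slc23a2 stood at 37.5 FPKM with MEK1-hi and 37.8 FPKM with MEK1-low exosomes.

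In the class of lipids, choline and acetyl-CoA, no member of 5 was called by Cuffdiff. A p under 0.05 before adjustment went with 1 lower member, beside 8.66% of all loci tested. The choline carrier Slc44a1 stood at 32.2 FPKM with MEK1-hi and 42.0 FPKM with MEK1-low exosomes (p = 0.0106, q = 0.230 in the authors' deposited table). Slc44a2 had a log2 fold change of -0.11. Slc27a1, the fatty acid transport protein FATP1, stood at 129 FPKM with MEK1-hi and 122 FPKM with MEK1-low exosomes.

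Of the organic ion carriers, Slc22a4 stood at 22.4 FPKM with MEK1-hi and 33.4 FPKM with MEK1-low exosomes (p = 0.0063, q = 0.162 in the authors' deposited table). It encodes OCTN1, which takes up the antioxidant ergothioneine. The lysosomal sialic acid exporter Slc17a5 had a log2 fold change of -0.18. Neither of the nucleoside carriers was called by Cuffdiff. The surface carrier Slc29a1 stood at 41.9 FPKM with MEK1-hi and 47.6 FPKM with MEK1-low exosomes, and the lysosomal Slc29a3 at 35.4 FPKM with MEK1-hi and 34.4 FPKM with MEK1-low exosomes.

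**Figure D5:**
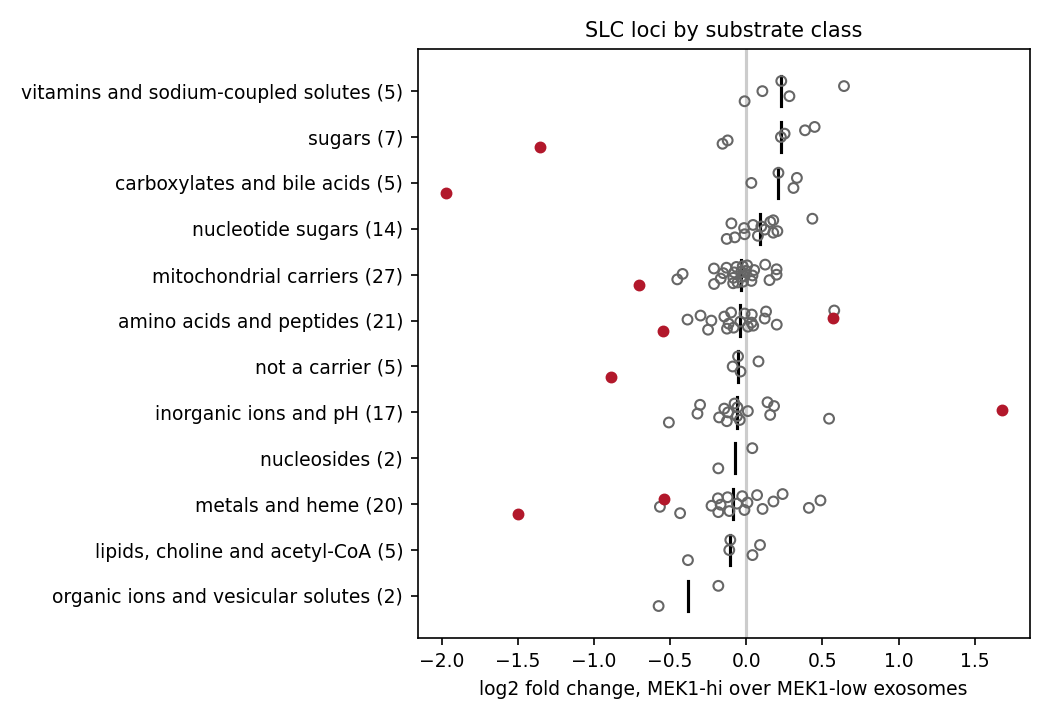
The log2 fold change of MEK1-hi over MEK1-low exosomes for the 130 loci by substrate class, with the number of loci in brackets. Filled red points passed the deposited test, black bars are class medians, and Slc13a3, Slc39a4, Slc2a6 and Slc9a9 stand apart from the other members of their classes.

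In the set, 5 symbols were set apart as not carriers. The rest were counted as carriers by family number, the partner chain Slc3a2 included. They are the scaffolds Slc9a3r1 and Slc9a3r2, the adaptor Slc4a1ap, Slc7a6os on the strand opposite Slc7a6, and the pseudogene Slc39a1-ps. Slc9a3r2 encodes NHERF2, which tethers the exchanger NHE3 and other membrane proteins, and it fell. It stood at 3.13 FPKM with MEK1-hi and 5.81 FPKM with MEK1-low exosomes, a log2 fold change of -0.89 (q = 0.00887 in the authors' deposited table), and reached the level limit through the MEK1-low value alone. Slc7a6os stood at 20.01 FPKM with MEK1-hi and 20.5 FPKM with MEK1-low exosomes. Slc9a3r1, or NHERF1, stood at 38.8 FPKM with MEK1-hi and 41.3 FPKM with MEK1-low exosomes. Without these 5, 2 of the 125 loci counted as carriers rose and 6 fell.

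Near the level limit, the members just inside were Slc16a13, Slc20a2 and Slc25a33. Slc16a13 stood at 5.35 FPKM with MEK1-hi and 4.32 FPKM with MEK1-low exosomes. Slc20a2 stood at 5.36 FPKM with MEK1-hi and 4.72 FPKM with MEK1-low exosomes, and Slc25a33 at 4.23 FPKM with MEK1-hi and 5.66 FPKM with MEK1-low exosomes. Just outside were Slc6a9, at 1.76 FPKM with MEK1-hi and 4.85 FPKM with MEK1-low exosomes, Slc6a12, at 1.498 FPKM with MEK1-hi and 4.02 FPKM with MEK1-low exosomes, and Slc43a3, at 3.94 FPKM with MEK1-hi and 1.66 FPKM with MEK1-low exosomes.

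Genes related to the carriers in function, solute carriers without an Slc number among them, were counted by symbol. Of all loci tested, 2.44% were called. None of the 25 ABC transporters tested was called by Cuffdiff. Unadjusted p-values under 0.05 went with 4 higher and 0 lower members, beside 8.66% of all loci tested in either direction. These ABC transporters had a median log2 fold change of -0.01. Abcc5 had the highest mean of them, at 90.7 FPKM with MEK1-hi and 128 FPKM with MEK1-low exosomes (q = 0.769 in the authors' deposited table). Of 3 tested organic anion carriers of the Slco family, Slco2b1 rose, at 6.004 FPKM with MEK1-hi and 1.27 FPKM with MEK1-low exosomes (q = 0.00349 in the authors' deposited table). Slco3a1 stood at 3.40 FPKM with MEK1-hi and 5.62 FPKM with MEK1-low exosomes (p = 0.0024, q = 0.0818 in the authors' deposited table). Of 13 Mfsd carriers, Mfsd7a fell, at 3.64 FPKM with MEK1-hi and 8.001 FPKM with MEK1-low exosomes (q = 0.00349 in the authors' deposited table). The abundant Mfsd1 stood at 124 FPKM with MEK1-hi and 122 FPKM with MEK1-low exosomes. None of 8 sideroflexins and mitochondrial pyruvate carriers, 6 P-type ion pumps or 11 genes listed as carrier partners was called by Cuffdiff. The partner list was made by name and includes genes that are transporters themselves, such as Flvcr1, Ctns and Clcn7. At an unadjusted p under 0.05, 1 of the sideroflexins and pyruvate carriers was higher, 1 of the partner list was lower and 0 of the pumps differed. The higher gene was Sfxn1, at 14.0 FPKM with MEK1-hi and 9.72 FPKM with MEK1-low exosomes (q = 0.0548 in the authors' deposited table). The lower gene was Clcn7, at 51.7 FPKM with MEK1-hi and 73.1 FPKM with MEK1-low exosomes (q = 0.0504 in the authors' deposited table). Mpc1-ps, a pseudogene that may share reads with Mpc1, was listed at 103 FPKM with MEK1-hi and 119 FPKM with MEK1-low exosomes. Unc93b1, the chaperone of endosomal Toll-like receptors, stood at 389.6 FPKM with MEK1-hi and 404 FPKM with MEK1-low exosomes.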

How the data were processed

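RNA was sequenced as paired reads of 100 bp from stranded libraries with an input of 750 ng of RNA, per the labels' protocols. TopHat, Cufflinks, Cuffdiff, FastQC 0.73 and the build mm10 are named in the submitters' processing notes. The strand setting of counting and the library normalization are not given in the sources used here. The deposited table holds the authors' FPKM value per group, their Cuffdiff test statistic (a score), p-value and q-value, per the file headers. FPKM keeps no counts, so the depth per sample is unknown and no interval is given. Values per sample were not used here. The column headed GFP exo was matched to MEK1-low exosomes through the treatment label.

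Of 55029 gene identifiers, 54771 were matched to a symbol. The table held 365 single-gene Slc loci, of which 175 were tested, 40 of those under 5 FPKM and 5 left out by name. The 190 untested ones reached at most 0.77 FPKM. Fold changes were computed as MEK1-hi over MEK1-low, without a pseudocount, and a locus was called at a deposited q under 0.05. The smallest q is shared by 181 loci, so it ranks none of them. Positions count from 1 (mm10), and exon overlaps come from GENCODE M21 on the same build. Exons of 37 of the 130 loci overlap those of a gene on the other strand, whose reads may not be told apart. The members and lists were chosen with earlier results of these data known. Substrate classes follow the family number, except that Slc16a10 is placed with the amino acid carriers, and 3 of the 5 symbols that are not carriers were set apart after the members were known, as were the 8 motifs chosen. Genes named comprise every called member, the 2 of the highest mean and the 2 of the largest absolute log2 fold change in each class, 3 on each side of the level limit, and in related lists up to 3 called genes and the 1 of the highest mean. Some of these are not reported here. Further genes (relatives and neighbours of these, carriers with a p under 0.05, and abundant or well-known class members) were chosen after their values were seen. Alternatives comprised other q, statistic and level limits, another adjustment, pseudocounts, centring, joined loci and carriers alone. Python 3.11.15 and pandas 2.3.3 were used, and the adjustment was tested on simulated data.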

Additional observations from a re-analysis of the deposited data

How the results depend on the processing

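The 2 higher and 7 lower calls were unchanged in number when the test statistic had to reach 2 in size, when p-values were adjusted over loci of 5 FPKM or more, when the level limit was 1 FPKM and when joined loci were added. At a q under 0.01 the counts were 2 and 5. With the mean of both groups at 5 FPKM or more, which keeps 127 loci and leaves out Slc9a3r2, they were 2 and 6, as among the 125 carriers alone. With a level limit of 10 FPKM, which keeps 94 loci, 1 was called higher and 5 lower, 33 had a higher value instead of 55, and the median log2 fold change was -0.051 instead of -0.030. That limit leaves out Slc9a9, Slc2a6 and Slc9a3r2 by construction, as their larger values lie under it. The median was -0.012 with a limit of 1 FPKM, -0.023 with a pseudocount of 5 FPKM and -0.024 among the 125 carriers alone. Of the 42 members named by rule, 42 kept their direction and their side of the threshold under each of the 4 alternatives run on single genes. Much of this was fixed in advance. The pseudocount and the centring keep the deposited q, so the side could not move under them. Direction could move only under the centring, which was by -0.0026 log2. No sample could be left out, because the table holds group values. No paired analysis was possible because the columns carry no replicate number. The unknown depth limits what can be said of low genes.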

Other observations

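Of the 40 single-gene Slc loci tested under 5 FPKM, 0 were called by Cuffdiff. Values were higher with MEK1-hi exosomes in 25 and lower in 15. A p under 0.05 before adjustment was reached by 6, beside 8.66% of all loci tested. Nearest to the threshold was Slc6a9, the glycine carrier GlyT1, at 1.76 FPKM with MEK1-hi and 4.85 FPKM with MEK1-low exosomes (q = 0.0519 in the authors' deposited table). Slc6a12, a betaine and GABA carrier, stood at 1.498 FPKM with MEK1-hi and 4.02 FPKM with MEK1-low exosomes (q = 0.498 in the authors' deposited table). Slc43a3, a purine nucleobase carrier, stood at 3.94 FPKM with MEK1-hi and 1.66 FPKM with MEK1-low exosomes (q = 0.100 in the authors' deposited table). The zinc importer Slc39a8 stood at 0.764 FPKM with MEK1-hi and 0.387 FPKM with MEK1-low exosomes (q = 0.273 in the authors' deposited table).

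A further 12 loci at 5 FPKM or more joined an Slc gene with other genes, whose reads cannot be told apart. The level of the Slc gene itself is therefore unknown, and 0 of these loci were called by Cuffdiff. Their log2 fold changes ran between -0.20 and 0.47. The highest was the locus of the monocarboxylate carrier family gene Slc16a6, at 14.7 FPKM with MEK1-hi and 10.7 FPKM with MEK1-low exosomes (p = 0.042, q = 0.522 in the authors' deposited table).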
